A study of Mus musculus with 4 samples.

Results

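Late round spermatids of the mouse testis are described here from 6133 cells, out of 57727 cells kept in 4 droplet libraries. They were chosen by a score. For each cell, the mean log-scaled level (counts per 10000) was taken over 7 small gene sets that follow germ cells from early spermatocytes to condensing spermatids, and each mean was standardised over all kept cells. A cell was a member where the set of 1700029E06Rik, 1700001P01Rik, Asb15 and Dscc1 had the highest of the 7 scores and lay above 1. The 6 other sets marked early spermatocytes (gate A), pachytene spermatocytes (gate B), late spermatocytes (gate C), early round spermatids (gate D), elongating spermatids (gate F) and condensing spermatids (gate G), and the late round spermatids are gate E. Because the members were chosen on these measured values, every level of gate E set against another gate below is a description without a test. Diet was not used in the choice and is tested, also for whether its change differs between gates.

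The study compared testes of Mus musculus fed a high-fat diet (HFD, 2 libraries) with testes of animals fed a normal diet (ND, 2 libraries), dissociated with collagenase IV, dispase II and DNase I and run on 10x Chromium with 3′ version 3 chemistry. Strain, genotype, age, diet composition, length of feeding and batch are not given in the sources used here. Whether the libraries are of separate animals is not stated in the labels. Except where stated, the p-values therefore measure only the spread between these libraries, which may be technical. Among the members, 1289, 1323, 1783 and 1738 came from HFD 1, HFD 2, ND 1 and ND 2, with 20918152, 18720509, 23997485 and 25224898 unique molecular identifiers (UMIs, 1 per captured RNA molecule) in that order. Scrublet called 398 of the members doublets, and these stayed in because the rule does not remove them. The members had 6129 distinct barcodes, and 4 of these occurred in more than 1 library.

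Spermatids are the haploid cells that meiosis leaves. In the round stages the Golgi builds the acrosome, the cap of enzymes and membrane proteins with which sperm bind and enter the egg, while the nucleus still transcribes. In the later steps the tail and the manchette, a skirt of microtubules that shapes the head, are assembled, histones give way first to transition proteins and then to protamines, transcription stops, and many messages are stored for later translation.

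The labelled stage was checked against markers outside the 7 sets. The acrosomal and head genes of the round spermatid list (Acrv1, Spaca1, Acr, Spata9, Sun5, Lyzl4 and Tex36) summed to 3624 CPM (counts scaled to 1000000 per library and gate) in the late round spermatids, 2787 in the early round spermatids and 926 in the elongating spermatids, as means of 4 libraries. The list for elongating and condensing spermatids (Tnp1, Prm1, Prm2, Odf1, Gapdhs, Akap4, Oaz3 and Smcp) summed to 17530 CPM in late round spermatids, between 6632 CPM in early round and 116144 CPM in elongating spermatids. Spermatocyte genes were at 593 CPM, against 827 in early round spermatids and 1330 in late spermatocytes. In elongating spermatids the spermatocyte genes were at 407 CPM. Insl6 alone made up 336 of the 593 CPM. Sycp1, Sycp2, Spo11 and Insl6 lay between the neighbouring stages. Sycp3, Tex101 and Hormad1 were lower in the members than in both, Sycp3 at 52.3 CPM against 80.7 in early round and 58.5 in elongating spermatids. The sums of the spermatocyte and the elongating lists thus lay between those of early round and elongating spermatids, as the label says, but not each spermatocyte gene did. The round spermatid list was higher in the members than in both. Markers of other testis cells were low in all 4 libraries. The 6 Leydig genes summed to 33.9 to 57.1 CPM, the 7 Sertoli genes to 16.6 to 23.4 and the 7 macrophage genes to 11.5 to 13.6. The 6 lymphocyte genes summed to 17.1 to 18.8 CPM and the 6 fibroblast and peritubular genes to 11.8 to 13.1. The 5 endothelial genes summed to 2.22 to 2.99 CPM, the 5 erythroid genes to 0 to 0.238 and the 7 spermatogonia genes to 15.6 to 19.8. Star, a defining Leydig gene, had 3.98 CPM and Sox9, a defining Sertoli gene, 0.166 CPM.

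The 4 genes that chose the cells differed in level and in how widely they were detected. 1700001P01Rik had 1015 and 989 CPM in the libraries HFD 1 and HFD 2 and 1032 and 1069 CPM in ND 1 and ND 2. Dscc1, a subunit of a clamp loader that takes part in sister chromatid cohesion, had 168, 158, 172 and 190 CPM in the same order. 1700029E06Rik had 146, 155, 147 and 133 CPM. Asb15, an ankyrin repeat protein with a SOCS box, the motif that links a target to ubiquitin ligases, had 92.0, 82.5, 92.4 and 94.2 CPM. Both ND libraries lay above both HFD libraries in 3 of the 4 genes, in Asb15 only by 92.4 against 92.0 CPM, and the diets overlapped in 1700029E06Rik. In 41.0% of all 17453 tested genes both HFD libraries lay on one side of both ND libraries. No test is given for these 4 genes, since they chose the cells. The early round spermatids held lower means of 326, 71.8, 39.3 and 16.8 CPM for 1700001P01Rik, Dscc1, 1700029E06Rik and Asb15. At least 1 UMI of 1700001P01Rik was found in 99.4% of the members, and in 94.2% after each cell was thinned to 3000 UMIs, which left out 393 shallower members. Free RNA in the droplets can give such UMIs too. In 1145 Leydig-like cells, which should lack the gene, 9.87% had a UMI of it (4.67% when thinned), at a median depth of 6067 UMIs against 12291 in the members. Asb15 was found in 66.7% of members (24.8% thinned) and in 0.699% of the Leydig-like cells (0.373% thinned).

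The score had no gap at its limit. Between scores of 1 and 1.1 there were 61 members with medians of 2683 UMIs and a gate D score of 0.02, and between 0.9 and 1 there were 54 cells with 3882 UMIs and a gate D score of 0.18 that were not members. Of the 8815 cells with a gate E score above 1, 2220 had a higher gate D score and 267 a higher gate F score. The neighbour in the scores was usually the earlier stage: gate D held the second-highest score in 66.5% of the members, gate F in 22.1%, and gate G in 4.14%. A spermatocyte score (gates A, B or C) came second in 2.95%, 1.88% and 2.48%. The 115 members with gate B second held 35.7% called doublets, against 4.81% where gate D came second.

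The genes outside the 7 sets that stood out most in late round spermatids were ranked by the ratio of the gate E mean to the highest mean of the other 6 gates, among genes with at least 50 CPM. Dapl1, a relative of death-associated protein 1, led with 97.5, 102, 85.8 and 95.03 CPM in HFD 1, HFD 2, ND 1 and ND 2, a mean 5.57 times that of the next gate. Klf5, a Krüppel-like transcription factor, had 113, 122, 113 and 113 CPM in the same order, 5.49 times the mean of early round spermatids. Another member of that family, Klf17, had 56.9, 61.7, 63.4 and 59.8 CPM, 3.89 times the next gate. All 4 libraries were close to each other for these 3 genes. Tbc1d23, which captures endosome-derived vesicles at the Golgi, was at 301 ± 9.31 CPM (SD, n = 4 libraries), with 82.2 CPM in early round and 91.3 CPM in elongating spermatids. Cd247, the zeta chain of the T-cell receptor complex, was at 62.8 ± 1.45 CPM and 2.93 times the next gate, and of the 6 lymphocyte markers Trbc2, a constant part of the T-cell receptor, was at 10.8 CPM (a UMI in 13.6% of members), Ms4a4b at 6.87 CPM and Cd3e, Cd3g, Nkg7 and Cd79a between 0.0134 and 0.126 CPM. The part of lymphocyte RNA in the level of Cd247 was not tested. Zfp428, a zinc-finger gene, was at 124 ± 3.87 CPM, 2.93 times the next gate. The other 9 of the 15 were 4930513O06Rik, 1700025N23Rik, Gm33525, 1700122O11Rik, 4930461G14Rik, 4930527J03Rik, 4930583P06Rik, 4930548H24Rik and 4930413E15Rik, with ratios from 5.37 to 2.97. GENCODE M21 (GRCm38) types 6 of the 15 as other than protein coding, against 11.6% of the 3369 genes with at least 50 CPM. Tbc1d23, Cd247, Zfp428 and 1700025N23Rik are among the genes that share positions with another annotated gene, so their counts may hold reads of a neighbour.

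**Figure D1:**
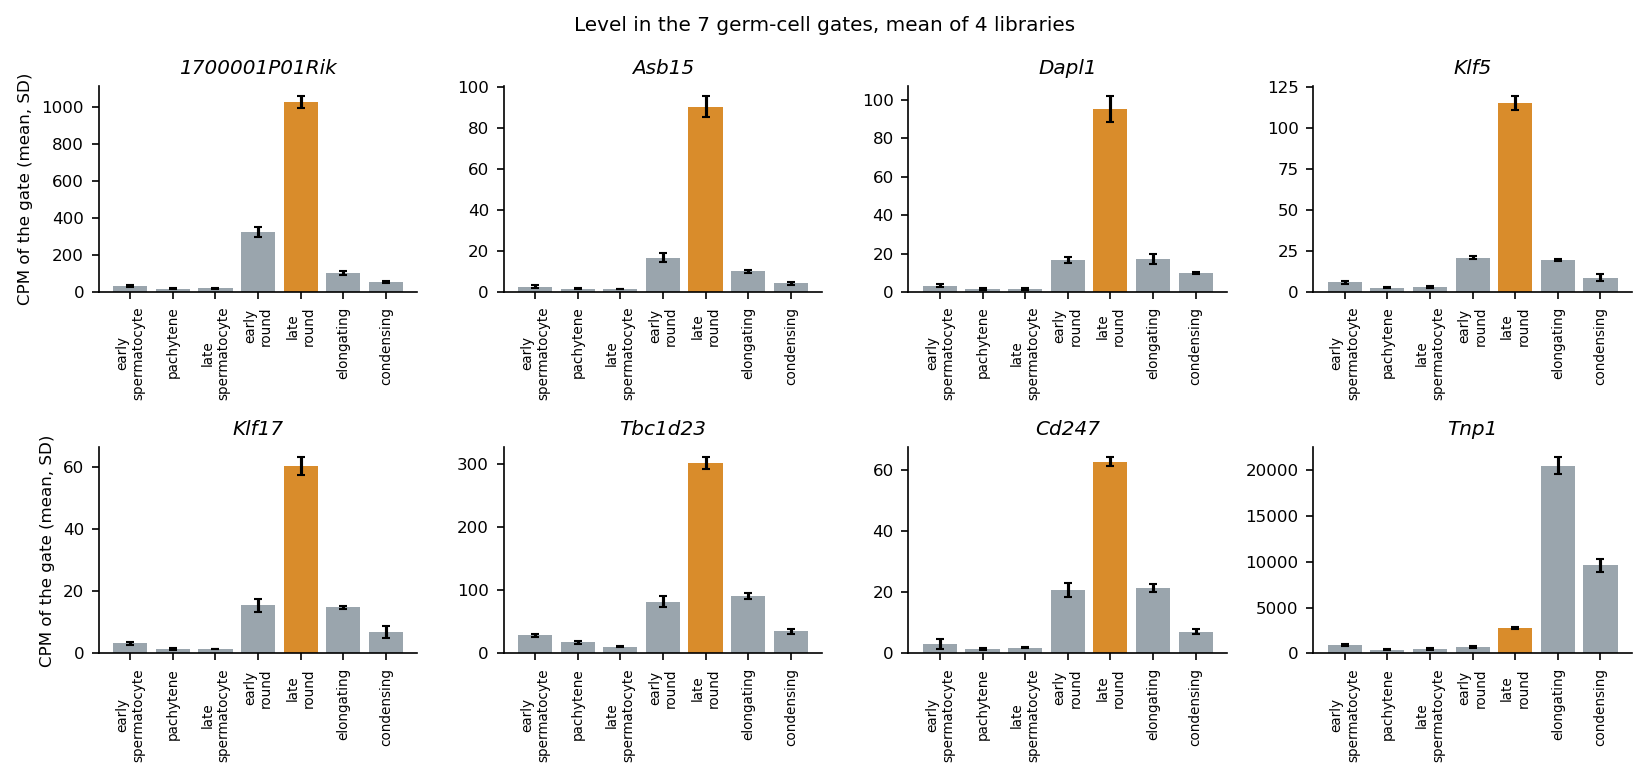
Mean level of 8 genes in the 7 germ-cell gates (bars, plain CPM on a linear axis from 0, with the SD over 4 libraries). 1700001P01Rik and Asb15 helped to choose gate E (orange); Dapl1, Klf5, Klf17, Tbc1d23 and Cd247 peaked there, while Tnp1 was at 2787 CPM in gate E and 20415 CPM in elongating spermatids.

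Upstream sequence was read for the genes that stood out in late round spermatids, because the spermatid regulator CREM is known to act through the cAMP response element. RefSeq promoter entries (GRCm38.p6) matched 13 of the 15 genes, and of the 4 genes that chose the cells only Asb15. In the 250 bases before each start, on both strands, the full element TGACGTCA was found in 0 of the 13, against 1.55% of 32851 promoters. Its first 6 bases, TGACGT, which lie within the full element, were found in Dapl1 and Tbc1d23, 2 of 13, against 6.47% of all promoters. The shorter TGACG, which lies within both, was also found in 2 of 13, against 17.8% of all. The 13 are genes, counted if any of their entries matched, while the shares of all promoters are over single entries. Both stretches are shown 5′ to 3′ on the strand of the gene, with the match in capitals. That of Dapl1 covers chr2:59484403-59484652 (plus strand), with the match starting 231 bases before the annotated start. That of Tbc1d23 covers chr16:57231504-57231533 (minus strand), with the match starting 55 bases before the RefSeq start. GENCODE M21 starts this gene further upstream, at 57231504, and the stretch is held to 30 bases because its exon reaches into the promoter entry.
Dapl1: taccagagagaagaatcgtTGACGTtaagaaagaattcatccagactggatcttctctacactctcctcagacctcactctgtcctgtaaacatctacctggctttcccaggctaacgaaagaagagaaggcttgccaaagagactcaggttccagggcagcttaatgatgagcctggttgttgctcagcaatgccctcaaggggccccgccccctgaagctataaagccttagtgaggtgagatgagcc
Tbc1d23: ctagagacgtggTGACGTtgcatccttcca
Each match is a description of these letters only.

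Against the stage before it, the late round spermatids were set apart by genes scarce there. The long noncoding RNA 1700017M07Rik had 71.6, 75.4, 71.3 and 66.3 CPM in HFD 1, HFD 2, ND 1 and ND 2, and 2.03, 2.38, 3.42 and 3.21 CPM in the early round spermatids of the same libraries, a ratio of means of 25.8. Tmco5b had a ratio of 23.3, Atp6v1fnb of 20.7, the kinase gene Dyrk4 of 18.7, the amino acid transporter gene Slc36a3 of 17.95, the F-box gene Fbxo39 of 17.8, the pseudogene Phgdh-ps1 of 16.9 and Hemgn of 16.6. All of these except 1700017M07Rik were higher still in elongating spermatids, where Hemgn had 379 CPM against 135 in late round spermatids. In the other direction, the genes in which early round spermatids exceeded the late ones most included Gm6588 (112 against 15.8 CPM), Dcdc2a (60.5 against 9.10), Gm3453, Ccnc, Arl14ep, Rfx8 and Sirt3. Ccnc encodes cyclin C of the Mediator complex and Sirt3 a mitochondrial deacetylase. Sirt3 had 76.3 CPM in early round, 18.7 in late round and 20.8 in elongating spermatids.

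Against the stage after it, the same cells kept messages that were scarce in elongating spermatids. Ice1, a subunit of the little elongation complex that serves small nuclear RNA genes, had 123, 121, 114 and 126 CPM in HFD 1, HFD 2, ND 1 and ND 2, against 6.63, 5.70, 8.11 and 9.97 CPM in elongating spermatids, a ratio of means of 15.9. Plin2, a coat protein of lipid droplets, had 110, 100.5, 109 and 114 CPM against 8.15, 8.14, 8.40 and 8.31. The nucleosome-binding gene Hmgn1 was at 265 ± 10.9 CPM (SD, n = 4 libraries) against 21.9, and the deubiquitinase gene Stambpl1 at 181 ± 6.81 against 14.6. The other 4 were 1700121L03Rik, Gm36368, 1700041C23Rik and Gm20268, with ratios from 15.2 to 12.9. Elongating spermatids exceeded the late round ones most in Gm4875 (85.0 against 2.30 CPM), Gm27002, 1700084D21Rik, AC164010.1, Gm12970, Fam214b, Cyp2a12 and Tmem189 (191 against 12.5 CPM).

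Among 14 lists of spermatid and general functions, the chromatin genes had the widest span over the 3 stages. The sum is led by a few very abundant genes, and 12 of the 27 chromatin condensation genes were higher in late than in early round spermatids. The 27 summed to 9282 CPM in early round, 22206 ± 512 in late round (SD, n = 4 libraries) and 118588 CPM in elongating spermatids. Tnp1, a transition protein gene, had 2907, 2692, 2862 and 2687 CPM in HFD 1, HFD 2, ND 1 and ND 2, and Prm1, a protamine gene, had 4983, 4553, 5011 and 4667 CPM in that order. The Leydig-like cells held 645 CPM of Tnp1 and 1832 CPM of Prm1. In early round spermatids Tnp1 was at 719 CPM and Prm1 at 1584 CPM, and in late round spermatids both lay above the level of the Leydig-like cells. Median depth was 6067 UMIs in the Leydig-like cells and 10898 in early round spermatids. In pachytene and late spermatocytes Tnp1 was at 433 and 497 CPM and Prm1 at 1199 and 1399 CPM, below early round spermatids. The part of free RNA in these levels was not tested. The examples in this and the next paragraph were picked after the values were seen, as list members with at least 50 CPM and a high ratio to early round spermatids. The histone variant gene H2al2a was at 343 CPM in late round and 46.0 in early round spermatids, the linker histone gene H1fnt at 890 against 168, Tssk6, a kinase needed for the exchange of histones, at 342 against 68.3, and Cdyl, a chromodomain protein gene, at 348 against 61.1.

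Other lists differed less between early round and elongating spermatids. The sums are plain shares of the total of a gate. More of the abundant chromatin messages therefore leaves a smaller share for other lists, and this part was not tested. The 36 acrosome and egg binding genes summed to 14312 ± 96.9 CPM in late round spermatids (SD, n = 4 libraries), 13036 in early round and 6597 in elongating spermatids, and 19 of the 36 were higher in the late round spermatids than in both. Izumo1, the sperm protein that binds the egg receptor, was at 212 CPM against 119 in early round and 87.7 in elongating spermatids. The 23 haploid multicopy genes of the sex chromosomes summed to 3723 CPM against 1491 in early round and 4243 in elongating spermatids, and their near-identical copies make single members uncertain. The tail and axoneme list stayed at 26381 CPM against 25059 and 24918, with 13 of 41 genes higher in late than in early round spermatids. Among these, Tekt5, a tektin of the axoneme, was at 171 CPM against 22.9 in early round spermatids. The manchette list summed to 6846 CPM against 7196 in early round spermatids, with 8 of 29 genes higher in the late ones. One of the 8, Spem1, needed to shed cytoplasm from the head, was at 143 against 24.3 CPM. Among the transcription regulators, 11 of 24 genes were higher in late than in early round spermatids. Fhl5, the partner of CREM known as ACT, was at 653 ± 13.6 CPM in late round, 199 in early round and 782 in elongating spermatids. Crem itself had 563 CPM in late round and 185 in elongating spermatids. Calr3, a testis chaperone of sperm surface proteins, was at 161 against 17.5 CPM, and 10 of the 27 chaperone and stress genes were higher in late than in early round spermatids. The ubiquitin and proteasome list summed to 9108 CPM against 9708 in early round spermatids, with 8 of 28 genes higher in the late ones, among them the germ-cell ubiquitin ligase genes Rnf133 and Rnf148 at 171 against 33.8 and 101 against 18.3 CPM. Summed chaperone and energy genes were lower than in early round spermatids, at 7680 against 8944 and 16858 against 18665 CPM.

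The members were not uniform. Ordered by the gate F score minus the gate D score and split into 4 bins of 1533 or 1534 cells, they ran from cells near early round spermatids to cells near elongating spermatids. Both scores took part in the choice of the cells, and a difference between the bins follows in part from this sorting. The levels over the bins are therefore a description without a test. The gate E genes stayed between 1361 and 1505 CPM over the bins, and median depth between 12099 and 12944 UMIs. Of 3369 genes with at least 50 CPM outside the 7 sets, 569 were higher at each step in all 4 libraries and 945 lower at each step. CPM here are plain shares of the total of a bin. A gain of abundant messages lowers the CPM of other genes, and its part in these counts was not tested. More than a 2-fold higher level in the last bin than in the first was found for 271 genes, and more than a 2-fold lower level for 164. The chromatin condensation list went from 12284 CPM in the first bin through 14413 and 20641 to 42274 CPM in the last. Acrosome genes went the other way, from 15471 through 15008 and 14082 to 12593 CPM, and the multicopy genes of the sex chromosomes from 3023 to 4613 CPM. The tail list ranged only from 26012 to 26515 CPM.

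Single genes differed much more over the bins than the lists, and those named here are the extremes, chosen after their values were seen. 1700016C15Rik had 10.5 ± 0.685 CPM in the first bin and 301 ± 5.27 in the last (SD, n = 4 libraries), a ratio of 28.7. Tfam, which packages mitochondrial DNA, had 24.9 ± 2.35 and 430 ± 11.8 CPM, Trp53tg5 16.1 ± 3.54 and 398 ± 17.8, and Prss37, a serine protease relative needed for male fertility, 15.9 ± 1.86 and 293 ± 3.64. Gm8251, Fam71b, Fam71a, 4930417H01Rik, the protein kinase C gene Prkcd and Prss52 completed the 10 largest, with ratios from 27.6 to 17.2. Spam1, the sperm hyaluronidase, had 235 ± 2.89 CPM in the first bin and 22.8 ± 2.27 in the last, 10.3 times lower. Also lower in the last bin were 1700041C23Rik, the integrin gene Itgad, Dop1b, Gm20268, the cytokine gene Il31, Prss46, Zdhhc11, Lrriq1 and Nudcd2, with ratios from 8.93 to 4.87. Izumo1, which also serves fertilisation, went the other way, from 182 CPM in the first bin to 237 CPM in the last.

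**Figure D2:**
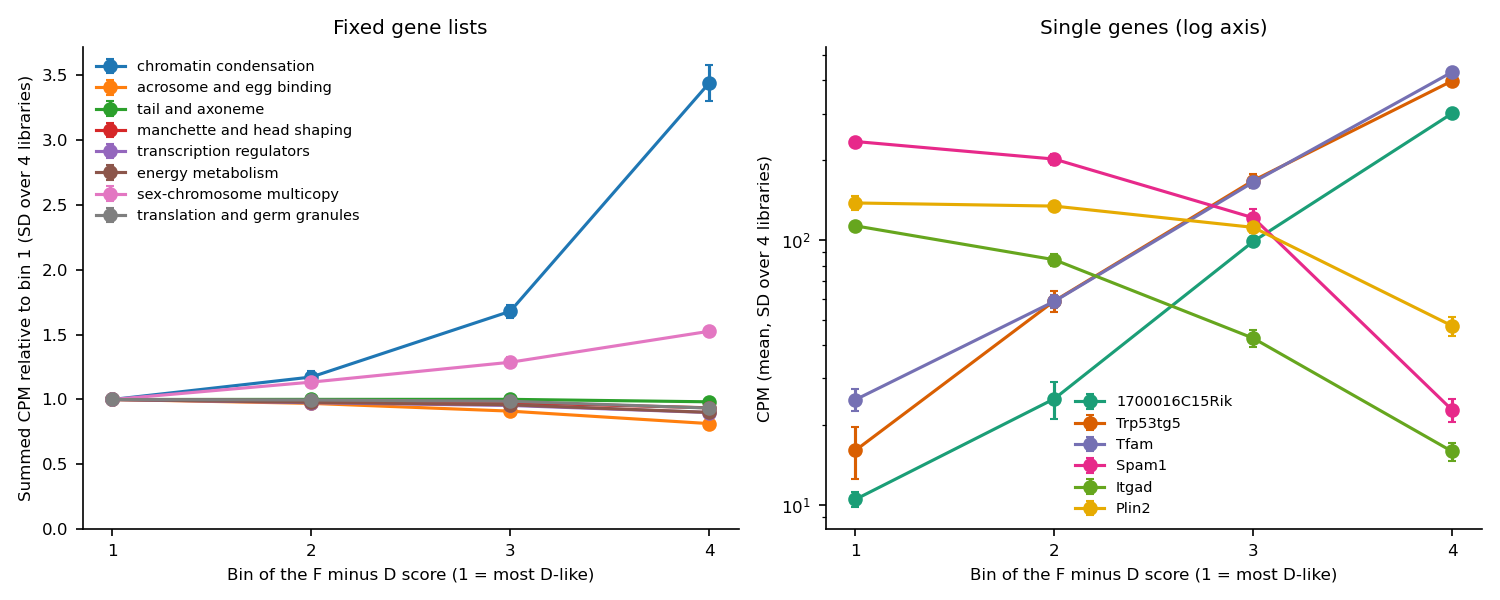
Left, summed CPM of 8 gene lists relative to the first bin; right, CPM of 6 genes on a log axis, both over the 4 bins of the F minus D score (points are means of 4 libraries, bars their SD). The chromatin list reaches 42274 CPM from 12284, 1700016C15Rik reaches 301 CPM from 10.5, and Spam1 ends at 22.8 CPM from 235.

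The share of late round spermatids among kept cells was lower on the high-fat diet. It was 9.52% in HFD 1 (95% exact binomial interval 9.03 to 10.0), 9.22% in HFD 2 (8.75 to 9.70), 11.7% in ND 1 (11.2 to 12.2) and 11.9% in ND 2 (11.4 to 12.5). The intervals cover counting error only. Both HFD libraries lay below both ND libraries, with means of 9.37% ± 0.213 (SD, n = 2) and 11.8% ± 0.160. The log2 ratio was -0.33 ± 0.045 (SE), with an adjusted p of 0.000731 in edgeR's quasi-likelihood test over the 7 gates and the ungated cells. The exact permutation p of the shares was 0.33, the smallest that 2 against 2 libraries can give. Shares of one sample add to a whole. In the same test gate D had a log2 ratio of -0.29, gate F of -0.16 and the ungated cells of -0.21, and gates A, B and C of 0.22, 0.34 and 0.53. Gate G was at -0.08 and did not pass (edgeR adjusted p = 0.277). Within gates D, E and F alone the late round spermatids made up 31.5% and 31.2% in the HFD libraries (1 and 2) and 32.9% and 33.0% in the ND libraries, a log2 ratio of -0.07 that did not pass (adjusted p = 0.0803, same test). With that denominator gate F turned to a log2 ratio of 0.10, which passed (adjusted p = 0.0139, same test). The SEs of this fit, 0.0076 for gate E and 0.0075 for gate F, lay below counting error. Its p-values measure counting error over cells and not the spread between libraries. In sums over dissociated tissue, fewer cells of a stage and more cells of other stages cannot be told apart.

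**Figure D3:**
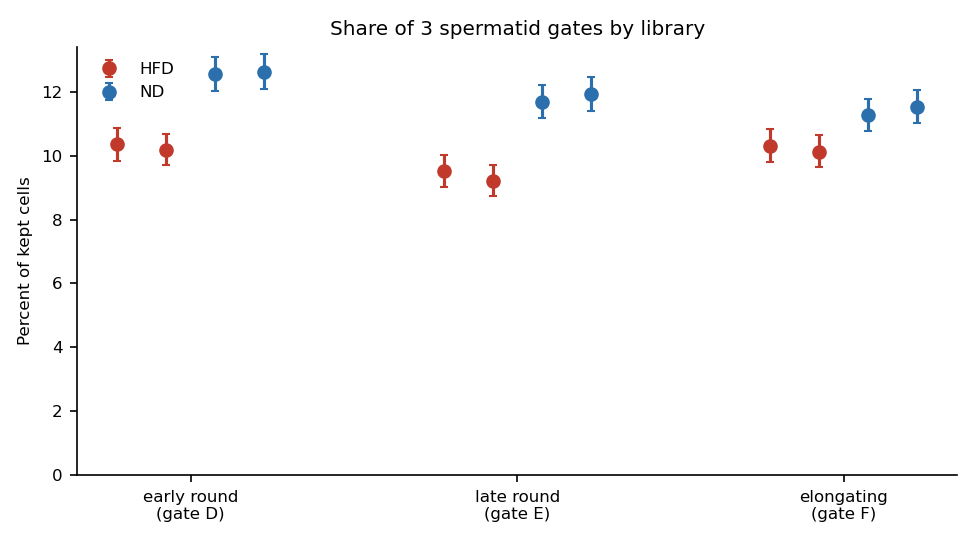
Percent of kept cells in gates D, E and F in each library (points, linear axis from 0), with 95% exact binomial intervals. In gate E the HFD libraries are at 9.52% and 9.22% and the ND libraries at 11.7% and 11.9%.

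Medians per cell were compared over libraries. The median depth was 13870 and 11595 UMIs for the HFD libraries (1 and 2) and 11845 and 12408.5 UMIs for the ND libraries, with overlapping groups and an exact permutation p of 1.0 (two-sided). At 3000 UMIs the members held medians of 1754, 1759, 1746 and 1750 genes in that order (exact permutation p = 0.33). Mitochondrial UMIs made up 0.083%, 0.082%, 0.089% and 0.088% (exact permutation p = 0.33). The gate F minus gate D score had medians of -0.92 and -0.80 in HFD and -1.03 and -1.14 in ND, with both HFD medians above both ND medians (difference 0.22). The margin of the gate E score over the next score had medians of 1.15 and 1.16 in HFD and 1.04 and 1.08 in ND. Both are made from the scores that chose the cells and are given without a test. In genes at 3000 UMIs and mitochondrial share the diets did not overlap, and the exact p is the smallest that this design allows. With HFD 1 left out, the difference in median UMIs turned from 606 to -532.

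Gene by gene, the diets differed in few genes of the late round spermatids. Of 17453 tested genes, 11 had an adjusted p under 0.05 in edgeR's quasi-likelihood test with Benjamini-Hochberg adjustment (0.0630%), 9 higher in HFD (0.0516%) and 2 lower (0.0115%). At an unadjusted p under 0.05 there were 1785 genes (10.2%), and in 41.0% of all genes both HFD libraries lay on one side of both ND libraries, as they did for the 11. The median log2 change over all genes was 0.00, and among 5586 genes with at least 20 CPM the 5th to 95th percentiles were -0.15 to 0.14. In simulated data of this diet comparison with 17163 genes, 83.0% of 100 genes changed 1.5-fold and 100% of 100 changed 2-fold were recovered, with 3 false calls. The changed genes were drawn only from those above a minimum of UMIs, and the spread of each gene was set by the trend with level. These shares therefore do not cover low genes or genes with a wider spread.

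**Figure D4:**
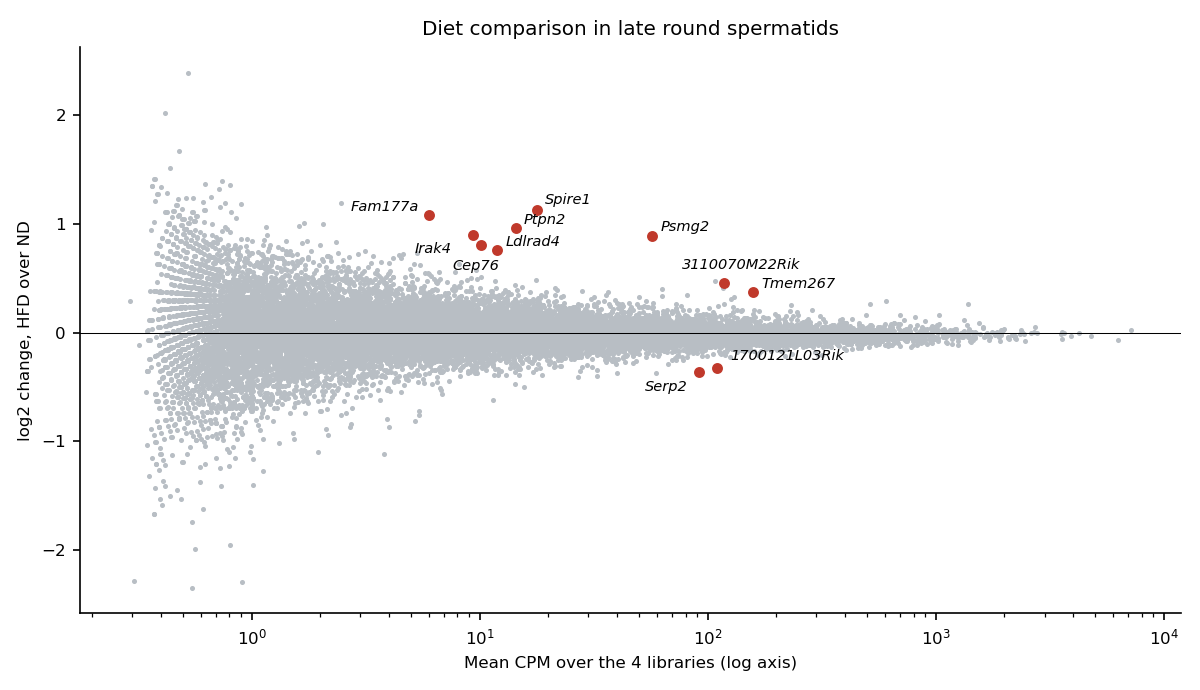
Log2 change (HFD over ND) of each of the 17453 tested genes in late round spermatids against its mean CPM over the 4 libraries (log axis). Red points are the 11 genes with an adjusted p under 0.05, 9 above 0 and 2 below.

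Psmg2 changed most among the genes with at least 20 CPM, the level set for naming. Psmg2 encodes a chaperone of proteasome assembly, and it had 74.4, 74.4, 40.0 and 40.2 CPM in HFD 1, HFD 2, ND 1 and ND 2 (CPM on TMM-scaled totals, as in all diet comparisons). Its log2 change was 0.89 ± 0.055 (SE; edgeR adjusted p = 3.35e-07). 3110070M22Rik had 135, 136, 102 and 95.8 CPM in the same order and rose by 0.46 ± 0.049 on the log2 scale (edgeR adjusted p = 0.000332). Tmem267, a transmembrane protein gene, had 176, 182, 136 and 140 CPM and rose by 0.37 ± 0.044 (edgeR adjusted p = 0.000817). Both HFD libraries lay above both ND libraries in all 3 genes. 3110070M22Rik (chr13:119487261-119488383, minus strand) and Tmem267 (chr13:119488039-119611059, plus strand) overlap, and no source used here says whether counting used the strand, so their reads may be shared. Serp2, of a family of stress-associated proteins of the endoplasmic reticulum, had 79.9 and 80.2 CPM in HFD and 105 and 101 CPM in ND, and fell by 0.36 ± 0.049 on the log2 scale (edgeR adjusted p = 0.00269). The long noncoding RNA 1700121L03Rik, 1 of the genes scarce in elongating spermatids, had 99.1 and 96.8 CPM in HFD and 121 and 124 CPM in ND, and fell by 0.33 ± 0.047 (edgeR adjusted p = 0.00516). Its log2 change kept its size, at -0.34 without HFD 1 and -0.31 without HFD 2. With HFD 1 left out, Serp2 and 1700121L03Rik no longer passed (edgeR adjusted p = 0.0856 and 0.0892), and with HFD 2 left out 1700121L03Rik did not (0.131).

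The other 6 called genes lay below 20 CPM on average and are named although the naming rule leaves them out, after their values were seen. Spire1, an actin nucleator, had 25.04 and 23.7 CPM in HFD against 11.1 and 11.2 in ND, a log2 change of 1.12 ± 0.086 (SE; edgeR adjusted p = 3.95e-06). Ptpn2, a tyrosine phosphatase, had 18.7 and 19.4 against 8.44 and 11.04 CPM (log2 change 0.96), and Irak4, a kinase of interleukin-1 and Toll-like receptor signalling, 12.2 and 12.3 against 6.46 and 6.63 CPM (0.90). Cep76, a centrosomal protein gene, had 12.3 and 13.6 against 7.30 and 7.46 CPM (0.81), Ldlrad4, an inhibitor of transforming growth factor beta signalling, 15.5 and 14.7 against 8.56 and 9.25 CPM (0.76), and Fam177a 8.57 and 7.77 against 4.53 and 3.22 CPM (1.08). The HFD libraries were the higher ones in all 6. Irak4 (with Twf1), Ldlrad4 and Spire1 share positions with annotated genes on the opposite strand, so their counts may hold reads of these. Fam177a did not pass without HFD 1 (edgeR adjusted p = 0.0513). Spire1, Cep76, Psmg2, Ptpn2 and Ldlrad4 are neighbours within chr18:67488209-68268630 (GRCm38), where 9 genes were tested and 5 called. The stretch was drawn around the called genes, from Spire1 to Ldlrad4, so its 5 of 9 is a description only. These 5 are the only called ones among 453 tested genes of chromosome 18. The 4 others in that stretch, 4930549G23Rik, Gm26910, Seh1l and Cep192, had log2 changes from -0.22 to 0.07 and did not pass.

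The count of called genes depended on single libraries. It was 11 without HFD 1, 15 without HFD 2, 1038 without ND 1 and 112 without ND 2, and ND 2 was the library least like the others (correlation of log levels 0.996 to 0.998). Each of these fits leaves 1 diet with a single library, which is assumed to vary like the pair of the other diet. The 11 genes were among those called without ND 1 and without ND 2, and 8 and 10 of them without HFD 1 and HFD 2. Against a minimum change of 1.5-fold, Psmg2 and Spire1 passed.

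Most of the 11 genes also passed in the neighbouring stages. In early round spermatids, fitted alone, 675 of 17117 genes were called (3.94%), 213 of them higher in HFD (1.24%), and 10 of the 11 passed there, with Cep76 at an edgeR adjusted p of 0.0568. Psmg2 had 109 and 108 CPM in HFD and 59.9 and 55.1 in ND there, a log2 change of 0.91, and Ptpn2 37.2 and 38.9 against 16.9 and 17.2 CPM, a change of 1.16. In elongating spermatids 205 of 16022 genes were called (1.28%), 129 of them higher in HFD (0.805%), and 8 of the 11 passed there, while Irak4, 1700121L03Rik and Ldlrad4 did not (edgeR adjusted p = 0.427, 0.140 and 0.089). The changes in the 3 stages come from the same 4 libraries. Of the 11, only 1700121L03Rik had a change that differed from that in early round spermatids by a test of the difference: it was -0.62 there and 0.33 ± 0.054 less negative in late round spermatids (interaction, edgeR adjusted p = 0.000107), which did not pass without ND 1 (edgeR adjusted p = 0.0626). For the 11 genes against elongating spermatids the smallest edgeR adjusted p of the difference was 0.158, for Irak4.

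**Figure D5:**
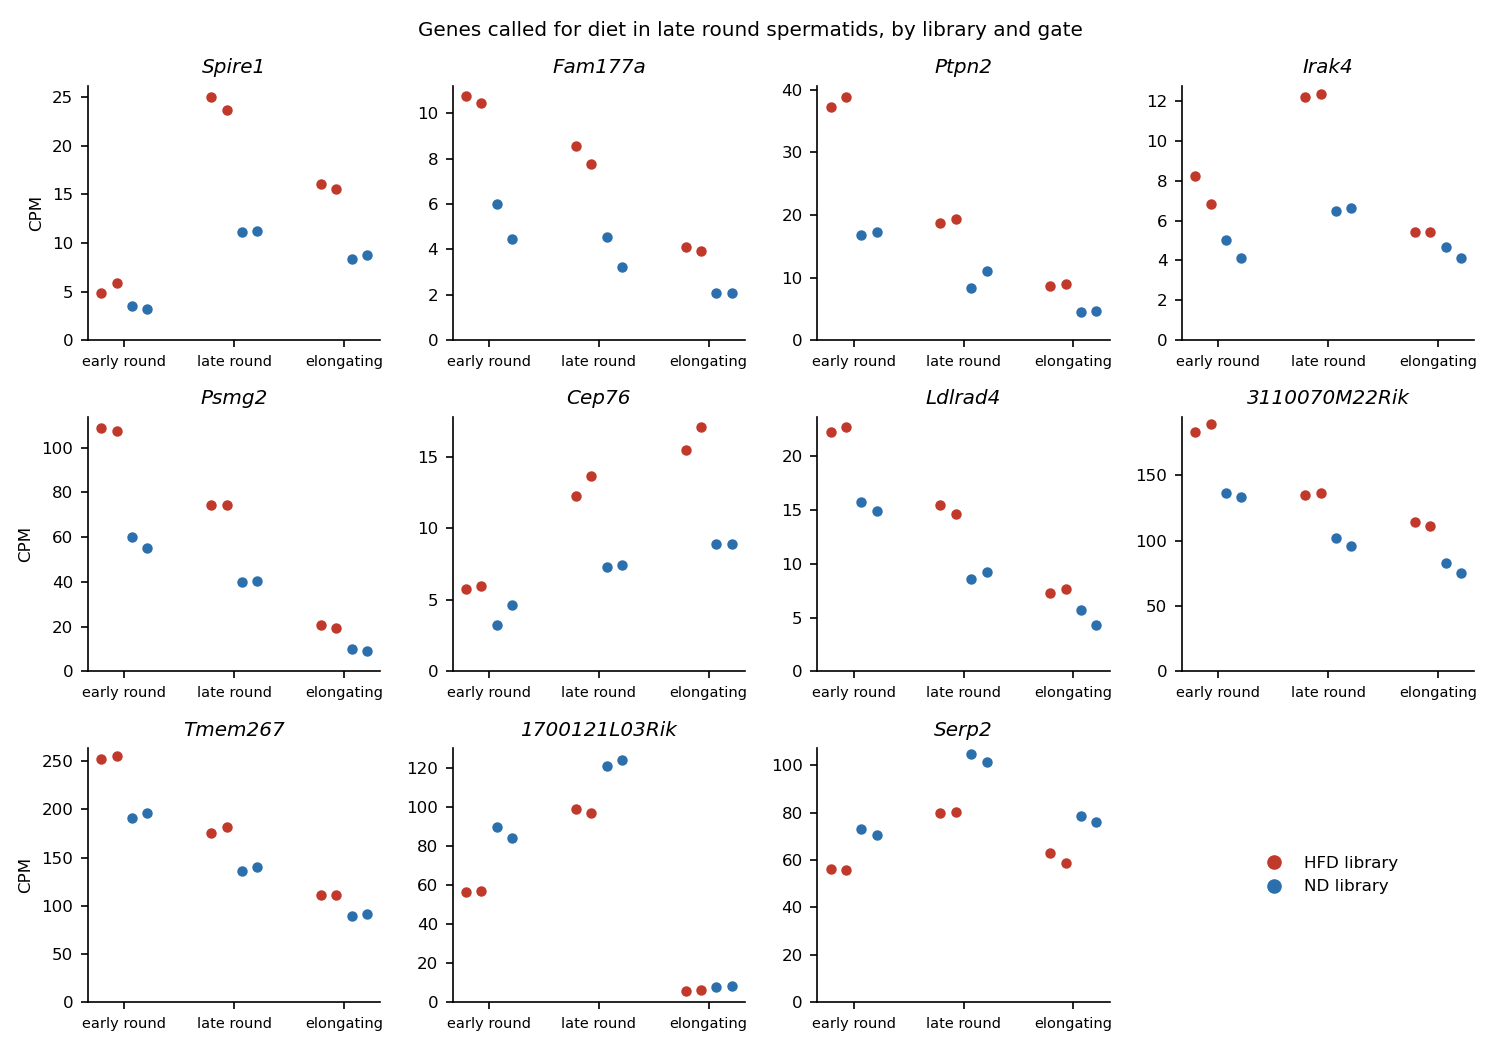
CPM (TMM-scaled, linear axes from 0) of the 11 genes called for diet in late round spermatids, in each library and in the early round, late round and elongating spermatids. Red points are HFD libraries and blue points ND libraries; in late round spermatids Psmg2 is at 74.4 CPM in both HFD libraries and at 40.0 and 40.2 in the ND libraries.

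Over the 395 tested genes of the 14 functional lists, 0 passed in edgeR's quasi-likelihood test, against 0.0630% of all genes, and 0 in DESeq2, against 0.0688%. With so few calls over all genes, a count of 0 is near the background. At an unadjusted p under 0.05 there were 50 in edgeR (12.7%), against 10.2% of all genes, and 23 in DESeq2 (5.82%), against 2.66%. The smallest edgeR adjusted p was 0.0894. That value belonged to Hspa5, the chaperone BiP of the endoplasmic reticulum, with 78.4 and 80.4 CPM in HFD and 65.6 and 66.8 in ND. The median log2 changes of the lists ran from -0.07 (lipid handling, 42 tested genes) to 0.06 (apoptosis, 15 tested genes), against 0.00 over all genes. With 1 library left out, lipid handling ran from -0.09 (without ND 1) to -0.05 (without ND 2), and apoptosis from -0.01 (without HFD 2) to 0.11 (without HFD 1). Of the 42 lipid handling genes 9 had a positive change. So had 9 of 36 acrosome, 9 of 30 energy and 4 of 22 transcription regulator genes, and 22 of 41 tail genes. The lipid handling genes at the lowest unadjusted p were Scd2, a fatty acid desaturase, and Scd1, another. Scd2 had 1.44 and 1.53 CPM in HFD against 2.69 and 2.82 in ND, and Scd1 0.191 and 0.264 against 0.504 and 1.31. Scd1 was highest in ND 2, where the summed Leydig markers were also highest (57.1 CPM, against 33.9 to 36.7 in the other libraries), and their part in the lipid genes was not tested. Acrosome genes had a median of -0.03 over 36, tail genes of 0.00 over 41, chromatin condensation genes of -0.01 over 26 and energy genes of -0.04 over 30. Acrosome genes were at 0.00 without HFD 2, chromatin condensation genes ran from -0.03 without ND 2 to 0.02 without ND 1, and energy genes were at -0.02 without ND 2. With equal numbers of cells taken from each bin of the F minus D score in every library, acrosome genes were at 0.00, chromatin condensation genes at -0.04, energy genes at -0.02, tail genes at 0.02, apoptosis genes at 0.00 and lipid handling genes at -0.06. Dnah17, a dynein of the tail, had 49.3 and 49.6 CPM in HFD against 41.2 and 40.7 in ND (edgeR adjusted p = 0.120), Slc2a3, a glucose transporter, 115 and 126 against 99.8 and 103 (0.115), and Rbmxl2, a germ-cell RNA-binding protein, 285 and 279 against 314 and 336 (0.103). Fhl5, Crem, Tnp1 and Prm1 did not pass either. Of the list genes, 0 passed without HFD 1 (0.0595% of all genes), 1 without HFD 2 (0.249%, against 0.0813% of all), 50 without ND 1 (12.5%, against 5.79%) and 11 without ND 2 (2.76%, against 0.622%).

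Whether the change with diet differed between late and early round spermatids was tested as an interaction within libraries. The difference of changes passed in 746 of 18668 genes (4.0%; edgeR quasi-likelihood test, library as a block), 718 with a higher change in late round spermatids (3.85%) and 28 with a lower one (0.150%). For the 718, the median log2 change was -0.17 in early round spermatids and 0.00 in late round spermatids. Of these 718 genes, 705 had a higher mean in late than in early round spermatids, as had 6707 of the 18668 tested. Beside this, the gate E score of the early round spermatids themselves had medians of 0.45 and 0.49 in HFD and 0.64 and 0.68 in ND. That score takes part in the choice of these cells, so it is given without a test, and its part in the result was not tested. The count was 400 without HFD 1, 466 without HFD 2, 355 without ND 1 and 608 without ND 2, and 103 with no library block and 263 in DESeq2.

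The largest of these terms among genes with at least 20 CPM in either stage were in genes scarce in early round spermatids. BC049739, Gm34549, Rora and Gm37600 met that limit only in late round spermatids. Their means in early round spermatids were 3.26, 2.92, 2.53 and 3.24 CPM. BC049739, a long noncoding RNA, had 2.08 and 2.88 CPM in HFD and 3.62 and 4.46 in ND in early round spermatids, and 27.1, 27.2, 23.3 and 22.8 CPM in late round spermatids, a difference of 0.98 ± 0.195 on the log2 scale (SE; edgeR adjusted p = 0.00106). Gm34549 followed with 0.94, Rora, a nuclear receptor gene, with 0.79, and Gm37600 with 0.79. In each of the 4, the ND libraries were the higher ones in early round spermatids. DESeq2 gave none of the 4 an adjusted p. Gm34549 passed with any 1 library left out. BC049739 did not pass without HFD 1 (0.76, edgeR adjusted p = 0.0697), nor Gm37600 without HFD 1 (0.69, adjusted p = 0.172) or ND 2 (0.72, 0.0662). Rora did not pass without HFD 2 (0.50, edgeR adjusted p = 0.459), without ND 2 (0.71, 0.116), without called doublets (0.73, 0.130) or with a gate margin of 0.5 (0.25, 0.810). With no library block neither Rora (edgeR adjusted p = 0.103) nor Gm37600 (0.123) passed. The lower terms by the same limit were Lcn2, a secreted lipocalin, at -0.61, Cst3, a secreted protease inhibitor, at -0.32, Gm525 at -0.31 and Rmnd5b, of a ubiquitin ligase complex, at -0.22. None of these 4 passed with no library block or in DESeq2, and each lost its call in edgeR without at least 1 library. Lcn2 was at -0.25 without HFD 1 (edgeR adjusted p = 0.359) and at -1.03 without HFD 2, and Cst3 at -0.24 without HFD 1 (0.488) and -0.19 without ND 2 (0.540). Gm525 did not pass without HFD 2 (-0.24, edgeR adjusted p = 0.301) or ND 1 (-0.29, 0.121), and Rmnd5b without HFD 1 (-0.19, 0.273) or ND 2 (-0.19, 0.153). Lcn2 had 20.3, 33.0, 26.2 and 27.0 CPM in late round spermatids and 42.7, 40.7, 27.2 and 26.4 CPM in early round spermatids, in the order HFD 1, HFD 2, ND 1 and ND 2, so that the diets overlapped in the late stage and not in the early one. The summed Leydig markers in late round spermatids were 36.7, 33.9, 36.3 and 57.1 CPM and the Sertoli markers 18.4, 16.6, 21.4 and 23.4 CPM in that order, and their part in these terms was not tested.

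Against elongating spermatids the difference of changes passed in 159 of 17797 genes (0.893%), 60 with a higher change in late round spermatids (0.337%) and 99 with a lower one (0.556%), in the same test. That count rested on single libraries, with 181 without HFD 1, 22 without HFD 2, 8 without ND 1 and 3 without ND 2, and it was 0 with no library block (1169 genes at an unadjusted p under 0.05 in edgeR) and 11 in DESeq2. Each of the 8 genes named next lost its call with no library block, without ND 1 and without ND 2, and each except Defb19 without HFD 2. With no library block their terms were nearly unchanged, from 0.58 for Fabp3 to -0.54 for Pcgf6. Of the 8, Ice1, 4930513O06Rik and Tmem165 met the limit of 20 CPM only in late round spermatids. Rnf6 and Defb19 met it only in elongating spermatids. DESeq2 gave none of the 8 an adjusted p. Ice1 was at 123, 121, 114 and 126 CPM in late round spermatids and had a mean of 7.60 CPM in elongating spermatids. Its change in elongating spermatids was -0.57 and did not pass there (edgeR adjusted p = 0.0641). The difference for Ice1 was 0.57 ± 0.138 (SE, edgeR adjusted p = 0.0143). Fabp3, a fatty acid binding protein, differed by 0.58, Ptgds, a prostaglandin D synthase, by 0.46 and 4930513O06Rik by 0.41, which did not pass in any alternative that gave it an adjusted p. Lower terms were found for Pcgf6, a Polycomb protein gene (-0.54), Rnf6, a ubiquitin ligase gene (-0.51), the Sertoli marker Defb19 (-0.50) and Tmem165 (-0.49). Fabp3 and Ptgds turned to -0.70 and -0.88 when called doublets were left out, and Ptgds to -0.40 without HFD 2 and 1.33 without HFD 1. Fabp3 was at 0.076 without HFD 2 (edgeR adjusted p = 0.937) and at 1.11 without HFD 1. Ptgds was at 23.7 CPM in HFD 1 and between 43.7 and 47.0 CPM in the other 3 libraries of late round spermatids.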

How the data were processed

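Single-cell RNA of mouse testis was measured in 4 libraries. The deposited matrices hold raw UMI counts per gene and barcode, not normalised by the authors, per the file headers; the submitters' processing notes name the build mm10, and the aligner, annotation and use of strand are not given in the sources used here. All 55450 gene identifiers matched GENCODE M21, from which coordinates on GRCm38 were taken. The libraries held 143748262 to 154221188 UMIs. A barcode was kept if it had 200 or more detected genes and no more than 20% of its UMIs in mitochondrial genes, which left 13543 to 15248 cells per library, and pairs of libraries shared 42 to 65 kept barcodes. Doublets were called with Scrublet in scanpy 1.11.5 (expected rate 0.1) and left out only in an alternative.

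Counts were summed per library and gate and tested with edgeR 4.0.16 in R 4.3.3 (filterByExpr, TMM, quasi-likelihood test, Benjamini-Hochberg adjustment over all tested genes, threshold 0.05), with library as a block for interactions; the script was tested on simulated data. DESeq2 1.42.0, limma 3.58.1 and other gates, filters and left-out libraries were alternatives. UMI counts at the 3′ end were not scaled by length, so levels were compared within a gene. Leydig-like cells were ungated cells with at least 3 Leydig genes and 10 Leydig UMIs.

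Diet genes were named with an adjusted p under 0.05, no overlap of the diets and at least 20 CPM; interaction genes were the 4 largest terms each way among called genes with at least 20 CPM in 1 of the stages, and stage genes the largest ratios at 50 CPM or more. The cells, gene lists and tests were chosen with earlier results of these data known.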

Additional observations from a re-analysis of the deposited data

Results flagged for a closer look

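The change with diet differed between late and early round spermatids in 746 of 18668 genes (4.0%), by an interaction test in edgeR with library as a block. Between late round and elongating spermatids it differed in 159 of 17797 genes (0.893%), by the same test. With no library block these counts were 103 and 0. Of the 718 positive terms against early round spermatids, 705 were in genes with a higher mean in late round spermatids. The gate E score of the early round spermatids had medians of 0.45 and 0.49 in HFD and 0.64 and 0.68 in ND, and its part was not tested. Each value below is the log2 change in late round spermatids minus that in the other stage.

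Against early round spermatids, the difference was 0.98 for BC049739, 0.94 for Gm34549, 0.79 for Rora and 0.79 for Gm37600. These 4 genes had at least 20 CPM only in late round spermatids, and means of 3.26, 2.92, 2.53 and 3.24 CPM in early round spermatids. DESeq2 gave none of the 4 an adjusted p. With 1 library left out, Gm34549 ran from 0.87 to 1.01, and Rora was at 0.50 without HFD 2. With no library block neither Rora (edgeR adjusted p = 0.103) nor Gm37600 (0.123) passed. The difference was -0.61 for Lcn2, -0.32 for Cst3, -0.31 for Gm525 and -0.22 for Rmnd5b. Each of these 4 lost its call without at least 1 library, with Lcn2 at -0.25 without HFD 1 (edgeR adjusted p = 0.359) and Cst3 at -0.19 without ND 2 (0.540). 1700121L03Rik, which was lower in HFD in both stages, had a difference of 0.33 and did not pass without ND 1 (edgeR adjusted p = 0.0626).

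Against elongating spermatids, the difference was 0.58 for Fabp3, 0.57 for Ice1, 0.46 for Ptgds and 0.41 for 4930513O06Rik. It was -0.54 for Pcgf6, -0.51 for Rnf6, -0.50 for Defb19 and -0.49 for Tmem165. Ice1, 4930513O06Rik and Tmem165 had at least 20 CPM only in late round spermatids, and Rnf6 and Defb19 only in elongating spermatids. All 8 lost their call with no library block, without ND 1 and without ND 2, and Fabp3 was at 0.076 without HFD 2 (edgeR adjusted p = 0.937).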

How the results depend on the processing

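For genes changed with diet, 11 became 207 with no filter on low counts, 132 with the replicate number as a block, 18 at a gate threshold of 0.5, 19 with a gate margin of 0.5, 27 without called doublets, 2 for changes beyond 1.5-fold, and 11 to 1038 with 1 library left out. The deviations of HFD 1 from the HFD mean and of ND 1 from the ND mean had a correlation of 0.0019 over 5586 genes. The labels do not say whether the replicate numbers pair the libraries, and this value cannot settle it. The share of late round spermatids kept its direction in all 12 alternatives, at a log2 ratio of -0.072 within gates D, E and F and of -0.33 with an exact permutation test, and passed in the other 10. Interactions with early round spermatids numbered 103 with no library block, 443 with no filter, 263 in DESeq2 and 355 to 608 with 1 library left out. Those with elongating spermatids numbered 0 with no library block (1169 at an unadjusted p under 0.05 in edgeR), 11 in DESeq2, 241 without called doublets, 46 with a gate margin and 3 to 181 with 1 library left out. Listed genes called were 15 with no filter, 9 with the replicate block, 1 at a threshold of 0.5, 2 with a margin, 5 without doublets and 0 to 50 with 1 library left out. With no filter the listed genes called were 3.53% of 425 tested, against 0.644% of all genes. With the replicate block they were 2.28% of 395 (0.756% of all), and without doublets 1.27% of 393 (0.159%). At a threshold of 0.5 they were 0.251% of 398 (0.102% of all), and with a margin 0.512% of 391 (0.115%). Whether these shares differ from those of all genes was not tested. The difference in median UMIs ran from -532 to 1743 with 1 library left out, and Fabp3 and Ptgds reversed to -0.70 and -0.88 without doublets, Ptgds ranging from -0.40 to 1.33 over left-out libraries. The cause of these shifts was not tested. Of the named diet genes' 165 alternative values, 152 kept their call and 13 lost it; of the interaction genes' 141, 70 lost it and 3 reversed. Of the list medians under these alternatives, 54 moved and 156 did not.

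With 2 libraries a diet, an exact test cannot go below 0.33, and the 18720509 to 25224898 UMIs of the late round spermatids in a library limit what can be seen in low genes. The gate is a range of scores. Abundant sperm messages were also found in the Leydig-like cells, and the parts of free RNA and of doublets in them were not tested.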
